A study of Mus musculus with 7 samples.

Results

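The genes described here are Bmp2, Arg1, Odc1, Crem, Pde4b, Pde4d, Nr4a1, Nr4a2 and Nr4a3, chosen by name as genes of adrenergic and cyclic AMP (cAMP) signalling to macrophages and of the macrophage signal to enteric neurons. All 9 were among the 17209 genes of the deposited table. The data are RNA-seq libraries of muscularis macrophages, the resident macrophages of the intestinal muscle layers, close to enteric nerves, from C57BL6/J mice. The muscle layer of the whole small intestine was peeled off, and the macrophages were sorted by flow cytometry as CX3CR1-GFP+ cells, CX3CR1 being the fractalkine receptor. There were 3 libraries from mice 24 h after pMCAO surgery (pMCAO 1 to pMCAO 3), a surgery that the series title calls stroke, and 4 libraries from mice 24 h after sham surgery (Sham 1 to Sham 4). The sort, the strain and the time point were common to both groups, and no label gives the age of the mice. The sham titles name biological replicates, the label of pMCAO 3 names a pool, and no label gives the number of mice behind a library, so p-values measure the spread between these libraries.

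As background, sympathetic nerves release noradrenaline in the gut wall, and muscularis macrophages carry adrenergic receptors. Receptors coupled to the G protein Gs raise cAMP, which activates protein kinase A and the transcription factor CREB. Among the genes that CREB switches on are Crem and the NR4A receptors, as well as phosphodiesterases that break cAMP down again and so end the signal. In the mouse gut, muscularis macrophages release bone morphogenetic protein 2 (BMP2), which acts on enteric neurons through the BMP receptor, and after infection they express arginase 1, whose product ornithine is the substrate of polyamine synthesis.

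Library totals over the listed genes ran from 12685941 to 21680302 counts after pMCAO and from 18873893 to 34432716 counts after sham surgery. Macrophage markers were high in both groups, with Csf1r at 1614 to 1917 CPM (counts scaled by TMM-adjusted library totals) after pMCAO and 1478 to 2783 CPM after sham surgery, and Adgre1 at 816 to 1296 CPM against 941 to 1574 CPM. The reporter locus Cx3cr1 was at 137 to 222 CPM after pMCAO and 207 to 299 CPM after sham surgery. Of the 8 macrophage markers 3 had higher and 5 lower means after pMCAO and 0 passed, and their sum was 9611 to 14410 CPM after pMCAO and 8968 to 13440 CPM after sham surgery. Mitochondrial ribosomal RNA took 8.26% to 12.6% of the counts after pMCAO, against 2.42% to 5.82% after sham surgery. All 8 fibroblast and all 8 endothelial markers had higher means after pMCAO, and 0 of them passed the test. Their summed levels were 106 to 533 CPM and 293 to 373 CPM in pMCAO libraries, against 55.3 to 163 CPM and 92.4 to 251 CPM in sham libraries. The part of these differences in the results below was not tested. In bulk libraries, fewer cells of a type and less RNA per cell cannot be told apart.

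None of the 9 genes changed after pMCAO by the test over all genes, edgeR's quasi-likelihood test with an adjusted p under 0.05. Over all genes the share that passed was 0.0988%, with 0.0697% higher and 0.0291% lower after pMCAO. The adjusted p of the 9 genes ran from 0.272 for Arg1 to 0.995 for Nr4a1, and for 0 of the 9 were the groups free of overlap, against 12.6% of all genes. At an unadjusted p under 0.05 Arg1 alone was counted, against 13.4% of all genes. Means were higher after pMCAO for 7 of the 9 and lower for Bmp2 and Nr4a1, against 48.6% of all genes with a higher mean. The median log2 change of the 9 was 0.32, against -0.02 over all genes. Arg1 was high in pMCAO 1 and pMCAO 2 only, Odc1 was highest in pMCAO 2 and Nr4a2 in pMCAO 1, while Pde4b was nearly level in all 7 libraries.

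**Figure D1:**
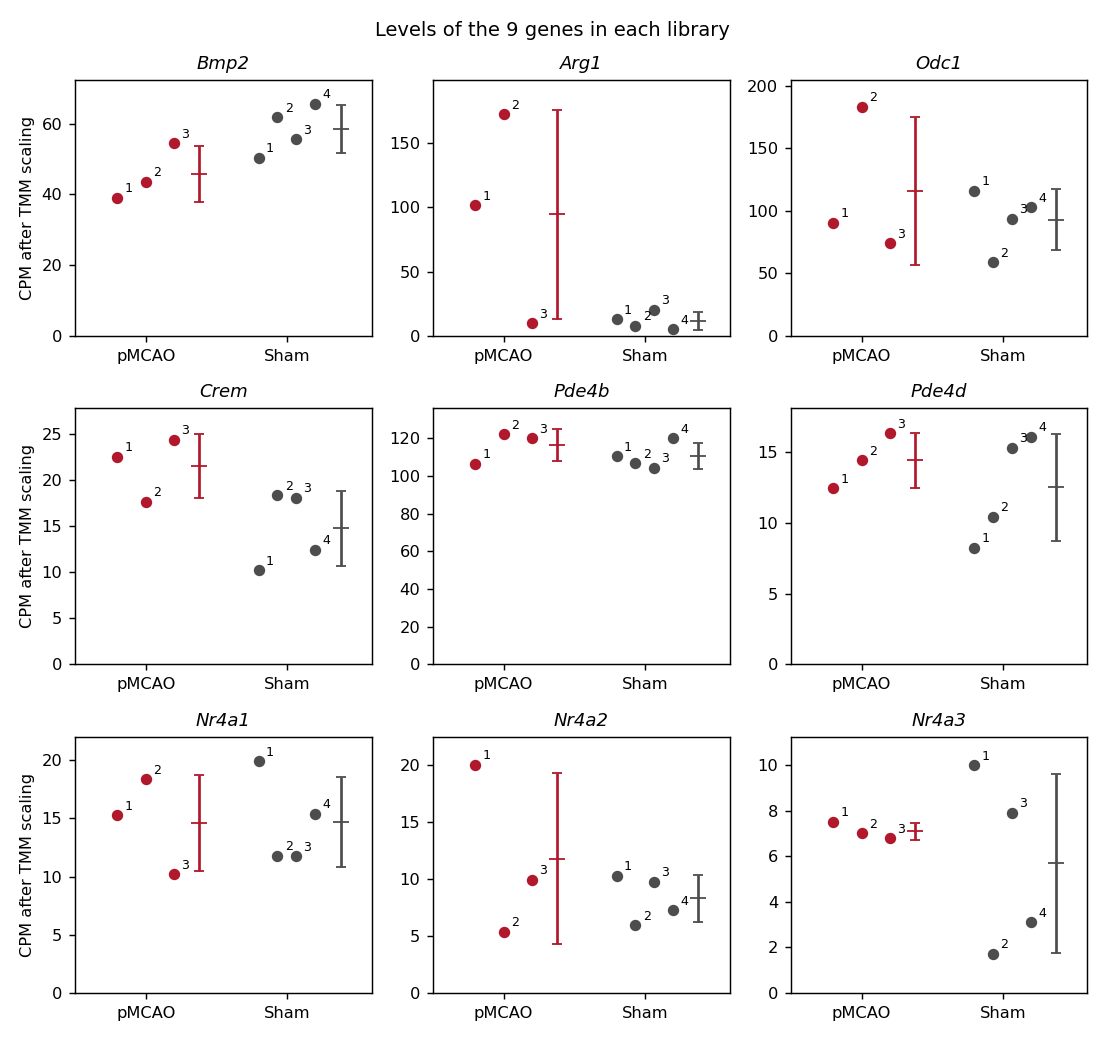
CPM after TMM scaling (vertical axes, each starting at 0) of the 9 genes in 3 pMCAO and 4 sham libraries. Points are libraries, labelled with their replicate number, and bars give the mean and SD of each group. The groups overlap for every gene, Arg1 stands at 101 and 172 CPM in pMCAO 1 and pMCAO 2 and at 10.1 CPM in pMCAO 3, and Pde4b lies between 104 and 122 CPM throughout.

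Bmp2 encodes the BMP ligand that muscularis macrophages send to enteric neurons. The gene (ENSMUSG00000027358) lies on chromosome 2 of GRCm38, from 133552159 to 133562885 on the plus strand. It was at 39.1, 43.6 and 54.5 CPM in pMCAO 1, 2 and 3, against 50.4, 61.9, 55.7 and 65.7 CPM in Sham 1 to 4. The libraries pMCAO 1 and pMCAO 2 were below all sham libraries, while pMCAO 3 lay above Sham 1. The mean was 45.7 ± 7.94 CPM (SD, n = 3) after pMCAO and 58.4 ± 6.74 CPM (SD, n = 4) after sham surgery. For Bmp2 the log2 change was -0.35 (SE 0.20, 95% interval -0.78 to 0.08, adjusted p = 0.461 by edgeR), so a lower level by the bound of -0.78 and an equal level are both within the interval. The change stayed below 0 in each of the 17 other settings tried, at -0.52 to -0.25. It passed the threshold in none, with adjusted p between 0.0992 and 0.743. The setting without a filter on low counts could not differ, as the filter removed no gene. Among 11588 genes with a mean of at least 5 CPM, the genes with profiles most like that of Bmp2 over the 7 libraries were Zfp558, Gpld1 and Tmed4. Their centred log2 profiles differed from it by a root mean square of 0.0419, 0.0683 and 0.0746, where the profile of Bmp2 itself has a root mean square of 0.242. Zfp558 was at 4.46 ± 0.834 CPM after pMCAO and 5.84 ± 0.815 CPM after sham surgery.

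Of 10 other BMP ligands, 3 were measured and 0 passed. Bmp6 was at 5.10 ± 2.30 CPM after pMCAO and 4.15 ± 3.13 CPM after sham surgery, and Bmp4 at 1.56 ± 2.11 and 1.51 ± 1.43 CPM in that order. Of 14 receptors, coreceptors and SMAD proteins, 12 were measured, 6 with a higher and 6 with a lower mean, and 0 passed, at a median log2 change of 0.12. Bmpr2, the type II receptor for BMP2, was at 531, 478 and 901 CPM in pMCAO 1, 2 and 3, against 495, 413, 460 and 393 CPM in Sham 1 to 4. Its log2 change was 0.53 (SE 0.21, adjusted p = 0.297 by edgeR), with pMCAO 2 below Sham 1. The type I receptor Bmpr1a was at 47.8 ± 14.01 CPM after pMCAO and 34.3 ± 4.21 CPM after sham surgery, and the activin type II receptor Acvr2a at 86.8 ± 22.5 and 56.6 ± 11.8 CPM. Of 13 BMP inhibitors, 7 were measured, all 7 had higher means after pMCAO and 0 passed, at a median log2 change of 0.97. Twsg1, a secreted modulator of BMP ligands, was at 38.4 ± 7.24 CPM after pMCAO and 24.4 ± 3.18 CPM after sham surgery with no overlap (log2 change 0.66, SE 0.23, adjusted p = 0.239 by edgeR). Several of these inhibitors, among them Fstl1 and Chrdl1, are also expressed by fibroblasts. The summed fibroblast markers were above all sham libraries in pMCAO 1 and pMCAO 3 and within the sham range in pMCAO 2. Fstl1 was at 26.3, 10.3 and 16.9 CPM and Chrdl1 at 5.38, 0.895 and 1.91 CPM in pMCAO 1, 2 and 3. Among pMCAO libraries, the inhibitors Grem1 and Smad7 were highest in pMCAO 2, at 14.4 and 18.6 CPM. In sham libraries Grem1 was at 0.903 to 7.85 CPM and Smad7 at 3.44 to 19.7 CPM. The part of fibroblasts in the levels of these inhibitors was not tested. Of 6 target genes of BMP signalling, 4 were measured and had higher means, and 0 passed. Id2, a repressor of basic helix-loop-helix factors, was at 187 ± 20.5 CPM after pMCAO and 134 ± 32.3 CPM after sham surgery (log2 change 0.47, SE 0.20, adjusted p = 0.316 by edgeR).

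Arg1 encodes arginase 1, which splits arginine into ornithine and urea. The gene (ENSMUSG00000019987) lies on chromosome 10, from 24915221 to 24927484 on the minus strand. It was at 101, 172 and 10.1 CPM in pMCAO 1, 2 and 3, against 12.8, 7.87, 20.5 and 5.30 CPM in Sham 1 to 4. The libraries pMCAO 1 and pMCAO 2 were above every sham library and pMCAO 3 lay among the sham libraries, below Sham 1 and Sham 3. The raw counts behind these values were 1187, 3655 and 180 after pMCAO and 250, 183, 406 and 193 after sham surgery. The log2 change was 3.03 (SE 0.95, 95% interval 0.70 to 5.37, adjusted p = 0.272 by edgeR). Without pMCAO 3, the library whose label names a pool, the log2 change was 3.57 with an adjusted p of 0.0377 by edgeR, and DESeq2 (adjusted p = 0.0435) and limma-voom with sample quality weights (adjusted p = 0.0271) passed with all 7 libraries. In the other 14 settings the adjusted p was above the threshold, and up to 0.795 with replicate number as a block.

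The level of Arg1 varied widely within both groups. The coefficient of variation was 85.9% over pMCAO libraries and 57.5% over sham libraries, while the medians over genes of at least 5 CPM were 24.1% and 19.9% in that order. The genes with the most similar profiles were Spp1, Thbs1 and Chil3, with root mean square differences of 0.638, 0.773 and 0.830 where that of Arg1 itself is 1.70. Spp1, which encodes the secreted phosphoprotein osteopontin, was at 154, 392 and 36.8 CPM in pMCAO 1, 2 and 3, against 15.4, 13.5, 84.3 and 7.01 CPM in Sham 1 to 4. Chil3, a chitinase-like protein of alternatively activated and monocyte-derived mouse macrophages, was at 211, 93.9 and 38.5 CPM, against 44.5, 12.9, 32.5 and 8.82 CPM in the same order of libraries. In these genes Sham 4 was the lowest of the 7 libraries, as it was for Arg1. The genes were chosen for likeness to Arg1 over the same libraries, so shared high and low libraries follow in part from that choice. The summed markers of large peritoneal macrophages and of adipocytes were also highest in pMCAO 2. Those of monocytes and neutrophils were highest in Sham 1 and, among pMCAO libraries, in pMCAO 2. Of 8 markers of large peritoneal macrophages, 7 were measured, with Gata6, the factor that defines these cells, not listed, and their summed level was 62.7, 140.5 and 55.3 CPM in pMCAO 1, 2 and 3, against 26.6 to 42.1 CPM in sham libraries. Of 8 adipocyte markers only Fabp4 and Cfd were listed, and their sum was 251, 615 and 132 CPM in pMCAO 1, 2 and 3, against 62.2 to 188 CPM. Most of it was Fabp4, at 246.8, 557.0 and 130.9 CPM in pMCAO 1, 2 and 3. Adipoq and Plin1 were not listed, so the sum need not come from adipocytes. The 8 monocyte and neutrophil markers summed to 1032, 1111 and 617 CPM in pMCAO 1, 2 and 3, against 1431, 747, 614 and 691 CPM in Sham 1 to 4. Their part in the level of Arg1 was not tested. Without pMCAO 2 the log2 change of Arg1 was 2.27 with an adjusted p of 0.261 by edgeR.

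**Figure D2:**
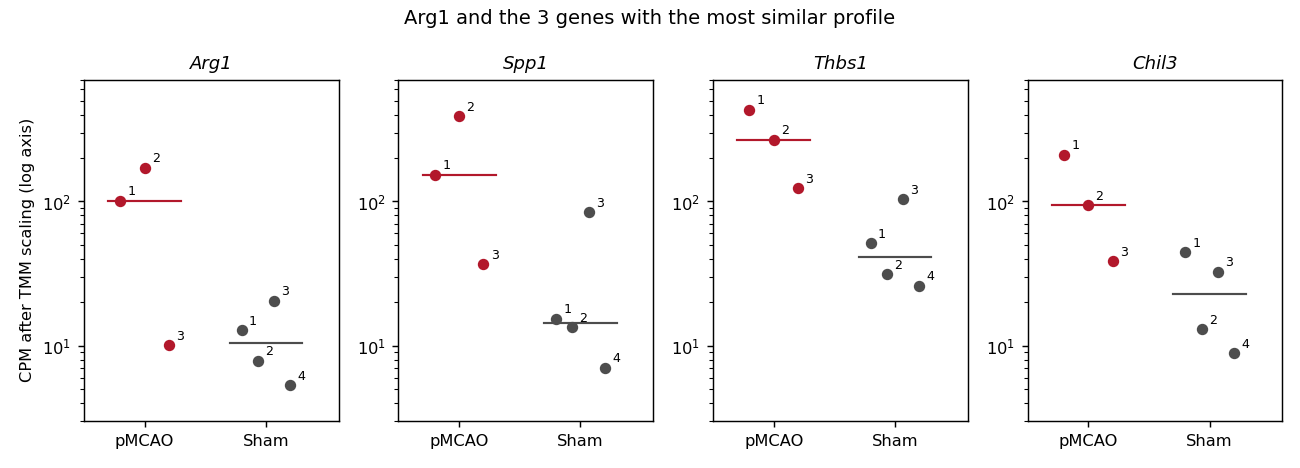
CPM after TMM scaling, on a log axis, of Arg1 and of Spp1, Thbs1 and Chil3, the genes with the smallest root mean square difference from its profile. Points are libraries with their replicate numbers and lines are group medians. In each panel pMCAO 1 and pMCAO 2 stand above every sham library, which follows in part from the choice by likeness. The library pMCAO 3 is at 10.1 CPM for Arg1 and 123 CPM for Thbs1.

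Odc1 encodes ornithine decarboxylase, the enzyme that turns ornithine into the polyamine putrescine. The gene (ENSMUSG00000011179) lies on chromosome 12, from 17544794 to 17551505 on the plus strand. It was at 90.5, 183 and 74.0 CPM in pMCAO 1, 2 and 3, against 116, 58.8, 93.9 and 103 CPM in Sham 1 to 4. Only pMCAO 2 was above the sham libraries, and the other pMCAO libraries lay within their range. For Odc1 the log2 change was 0.32 (SE 0.29, 95% interval -0.31 to 0.95, adjusted p = 0.671 by edgeR) and -0.17 without pMCAO 2. The library with the highest Odc1 was thus also the library with the highest Arg1, but pMCAO 1, with Arg1 at 101 CPM, had less Odc1 than 3 of the 4 sham libraries.

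All 14 other genes of polyamine synthesis, breakdown and transport were measured and 0 passed, with 6 higher and 8 lower means and a median log2 change of -0.15. Dohh, the hydroxylase that completes hypusine, the polyamine-derived residue of the translation factor eIF5A, was at 5.73, 7.20 and 4.04 CPM in pMCAO 1, 2 and 3, against 10.2, 16.9, 9.28 and 9.79 CPM in Sham 1 to 4. The groups did not overlap, and 6.58% of all genes tested were lower without overlap after pMCAO (log2 change -1.03, SE 0.39, adjusted p = 0.272 by edgeR). Azin1, an inhibitor of the antizymes that destroy ornithine decarboxylase, was at 124 ± 11.2 CPM after pMCAO and 90.4 ± 21.04 CPM after sham surgery, and spermine synthase, Sms, at 22.2 ± 3.66 and 15.2 ± 2.93 CPM. Of 9 genes of arginine transport and metabolism, 8 were measured, 3 had higher and 5 lower means and 0 passed. Arg2, the mitochondrial arginase, was at 9.23, 9.75 and 5.05 CPM in pMCAO 1, 2 and 3, against 2.10, 2.92, 4.29 and 3.27 CPM in Sham 1 to 4, with no overlap (log2 change 1.34, SE 0.45, adjusted p = 0.222 by edgeR). A higher level without overlap was seen for 5.99% of all genes. The arginine transporter Slc7a2 was at 11.02, 1.98 and 4.60 CPM after pMCAO, against 2.16, 1.89, 1.31 and 1.51 CPM after sham surgery. Nos2, the inducible nitric oxide synthase that competes with arginase for arginine, was at 0.424 to 1.71 CPM after pMCAO and 0.807 to 1.55 CPM after sham surgery.

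Crem encodes the cAMP-responsive modulator, whose short forms, the inducible cAMP early repressors, block CREB targets. The gene (ENSMUSG00000063889) lies on chromosome 18, from 3266048 to 3337748 on the minus strand, and its count adds all isoforms, so activators and repressors cannot be told apart. A gene on the opposite strand overlaps 8.01% of its exon bases, and whether counting used strand is not stated. Crem was at 22.6, 17.7 and 24.4 CPM in pMCAO 1, 2 and 3, against 10.3, 18.4, 18.1 and 12.5 CPM in Sham 1 to 4. The libraries pMCAO 1 and pMCAO 3 were above all sham libraries, and pMCAO 2 lay below Sham 2 and Sham 3. The mean was 21.6 ± 3.48 CPM (SD, n = 3) after pMCAO and 14.8 ± 4.08 CPM (SD, n = 4) after sham surgery. For Crem the log2 change was 0.54 (SE 0.29, 95% interval -0.08 to 1.17, adjusted p = 0.437 by edgeR), and was above 0 in the other 17 settings, at 0.40 to 0.67.

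The phosphodiesterases Pde4b and Pde4d encode enzymes of one family that hydrolyse cAMP. Pde4b (ENSMUSG00000028525, chromosome 4, 102087543 to 102607259, plus strand) was at 107, 122 and 120 CPM in pMCAO 1, 2 and 3, against 111, 107, 104 and 120 CPM in Sham 1 to 4. The groups covered nearly the same range. The coefficient of variation was 7.33% over pMCAO libraries and 6.21% over sham libraries, and 6.67% and 4.14% of the genes of at least 5 CPM varied less in those groups. For Pde4b the log2 change was 0.08 (SE 0.16, 95% interval -0.27 to 0.42, adjusted p = 0.874 by edgeR), the narrowest interval of the 9 genes. The genes with the most similar profiles were Wdr33, Wdr82 and Ate1, with root mean square differences of 0.0542, 0.0612 and 0.0692, against 0.0887 for the profile of Pde4b itself. Such likeness to a level profile says only that these genes vary little.

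Pde4d (ENSMUSG00000021699, chromosome 13, 108449948 to 109953461, plus strand) was at 12.5, 14.5 and 16.4 CPM in pMCAO 1, 2 and 3, against 8.26, 10.5, 15.3 and 16.1 CPM in Sham 1 to 4. Sham 1 and Sham 2 were lower than the other 5 libraries. The log2 change was 0.20 (SE 0.32, 95% interval -0.49 to 0.89, adjusted p = 0.828 by edgeR). Both genes have several start sites and isoforms, which the counts per gene add together. Per kilobase of exon, the level of Pde4b was 11.02 ± 0.807 CPM per kb after pMCAO and 10.5 ± 0.649 CPM per kb after sham surgery, while Pde4d was at 1.202 ± 0.162 and 1.04 ± 0.316 CPM per kb.

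The rest of the cAMP pathway showed no call either. Of 14 receptors coupled to Gs and their RAMP partners, 11 were measured and 0 passed, 5 with higher and 6 with lower means. Calcrl, the receptor that forms the CGRP and adrenomedullin receptors with RAMP proteins, was at 142, 131 and 214 CPM in pMCAO 1, 2 and 3, against 113, 103, 95.4 and 99.5 CPM in Sham 1 to 4, without overlap (log2 change 0.66, SE 0.19, adjusted p = 0.176 by edgeR). Endothelial cells also express Calcrl. Their summed markers were at 372.7, 294.5 and 293.4 CPM in pMCAO 1, 2 and 3, against 163.5, 250.7, 92.35 and 107.8 CPM in Sham 1 to 4. The part of endothelial cells in the level of Calcrl was not tested. Ptger4, a prostaglandin E2 receptor, was at 119 ± 19.1 CPM after pMCAO and 80.4 ± 19.5 CPM after sham surgery. Adrb1, a beta adrenergic receptor of this list, was at 15.6 ± 6.38 CPM after pMCAO and 17.4 ± 6.32 CPM after sham surgery. Of 6 alpha adrenergic receptors only Adra1a was listed, at 10.3, 0 and 1.74 CPM in pMCAO 1, 2 and 3 and 0.257 to 1.51 CPM in sham libraries.

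Of 11 G protein subunits and adenylyl cyclases 8 were measured, and of 11 protein kinase A and EPAC genes all 11, with 0 passing in either list. Adcy3, a cyclase, was at 5.42 ± 3.09 CPM after pMCAO and 10.9 ± 2.96 CPM after sham surgery, with overlap. Gnas, the Gs alpha gene, was at 2.37 to 5.99 CPM over the 7 libraries, but other genes on the opposite strand overlap 22.0% of its exon bases, so its count is uncertain. Prkar1b, a regulatory subunit of protein kinase A, was at 1.88, 1.84 and 2.92 CPM in pMCAO 1, 2 and 3, against 4.62, 9.29, 8.22 and 6.90 CPM in Sham 1 to 4, without overlap (log2 change -1.71, SE 0.47, adjusted p = 0.153 by edgeR). The other regulatory and catalytic subunits of the list had adjusted p above that of Prkar1b.

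All 10 CREB factors, coactivators and kinases that restrain them were measured and 0 passed, at a median log2 change of 0.10. Crtc3, a CREB coactivator, was at 37.1, 42.2 and 33.6 CPM in pMCAO 1, 2 and 3, against 54.6, 48.6, 64.3 and 48.5 CPM in Sham 1 to 4 (log2 change -0.52, SE 0.20, adjusted p = 0.285 by edgeR). Sik1, a kinase induced by cAMP that excludes CREB coactivators from the nucleus, was at 62.2, 72.3 and 82.0 CPM after pMCAO, against 44.1, 57.5, 61.2 and 43.5 CPM after sham surgery (log2 change 0.49, SE 0.20, adjusted p = 0.315 by edgeR). Neither gene overlapped between groups. Of 14 other phosphodiesterases 12 were measured and 0 passed. Pde3a was at 183, 23.9 and 102 CPM in pMCAO 1, 2 and 3, against 19.7, 41.9, 47.9 and 51.8 CPM in Sham 1 to 4, high in pMCAO 1 and pMCAO 3 and low in pMCAO 2. The fibroblast markers were likewise lower in pMCAO 2 than in the other pMCAO libraries. They summed to 461.6, 105.7 and 532.9 CPM in pMCAO 1, 2 and 3, against 55.3 to 163 CPM in sham libraries. The smooth muscle and Cajal cell markers summed to 224.3, 162.6 and 188.7 CPM in pMCAO 1, 2 and 3, against 114.6 to 264.4 CPM in sham libraries. The part of these cell types in the level of Pde3a was not tested.

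Of 20 other genes known to be induced by cAMP, 18 were measured, 16 had higher means and 0 passed, at a median log2 change of 0.44. For 4 of the 18 the pMCAO libraries were all higher, against 5.99% of all genes. These were Fosl2, Klf4, Sik1 and Thbs1. The AP-1 subunit Fosl2 was at 84.7 ± 15.6 CPM after pMCAO and 54.1 ± 7.005 CPM after sham surgery (adjusted p = 0.191), the factor Klf4 at 520 ± 63.3 and 350.2 ± 57.6 CPM (adjusted p = 0.192) and the matrix protein Thbs1 at 275 ± 155 and 53.1 ± 35.5 CPM (adjusted p = 0.200), each by edgeR.

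**Figure D3:**
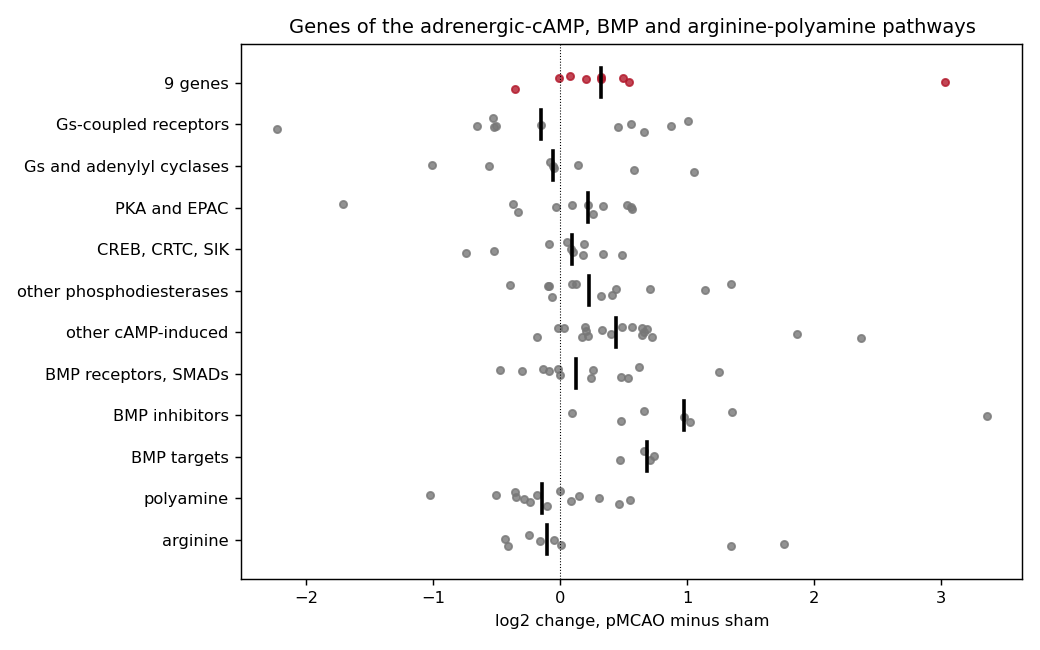
Log2 change, pMCAO minus sham (horizontal axis), of each measured gene in the 9 genes and in lists of the cAMP, BMP and arginine-polyamine pathways. Each point is a gene and the black bar is the median of its list. The medians run from -0.15 for Gs-coupled receptors and polyamine genes to 0.97 for BMP inhibitors, and no gene shown passed the threshold.

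Nr4a1, Nr4a2 and Nr4a3 encode orphan nuclear receptors that cAMP, calcium and inflammatory signals induce rapidly and that restrain inflammatory genes in macrophages. They lie on chromosome 15 (ENSMUSG00000023034, 101254269 to 101274795, plus strand), chromosome 2 (ENSMUSG00000026826, 57106830 to 57124003, minus strand) and chromosome 4 (ENSMUSG00000028341, 48045153 to 48086447, plus strand). CREB binds the cAMP response element, TGACGTCA, and also its core TGACG alone. Of the 9 genes, 6 have a RefSeq promoter window (GRCm38.p6) that was used here, and the 250 bases before the start were searched on both strands. The full element was in 0 of these windows and in 1.55% of 32851 windows of all genes. The core, which is part of the full element, occurred 4 times in each NR4A window, as it did at least 4 times in 0.137% of all windows, where any core was found in 17.8%. The NR4A windows had a GC content of 63.6% to 80.0%, against a median of 52.4%. The NR4A windows are shown because each holds 4 cores, with the core and its reverse complement in capitals, 5′ to 3′ on the strand of the gene.
Nr4a1: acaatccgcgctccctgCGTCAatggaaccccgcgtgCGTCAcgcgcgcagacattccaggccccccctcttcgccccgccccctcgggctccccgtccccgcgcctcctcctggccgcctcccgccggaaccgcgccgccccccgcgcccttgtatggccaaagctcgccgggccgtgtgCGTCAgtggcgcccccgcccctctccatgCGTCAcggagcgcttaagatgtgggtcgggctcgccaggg
Nr4a2: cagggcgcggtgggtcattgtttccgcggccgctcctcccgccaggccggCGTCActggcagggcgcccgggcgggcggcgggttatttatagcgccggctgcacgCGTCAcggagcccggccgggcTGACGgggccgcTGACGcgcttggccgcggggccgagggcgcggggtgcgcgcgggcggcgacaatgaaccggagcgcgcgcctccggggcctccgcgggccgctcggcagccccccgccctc
Nr4a3: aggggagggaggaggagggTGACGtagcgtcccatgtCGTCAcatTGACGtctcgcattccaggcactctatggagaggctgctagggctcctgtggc
The windows are chr15:101266596-101266845 on the plus strand for Nr4a1, chr2:57124004-57124253 on the minus strand for Nr4a2 and chr4:48045055-48045304 on the plus strand for Nr4a3. Of the Nr4a3 window the first 98 bases are printed, chr4:48045055-48045152, which hold 3 of its cores, because an exon of a GENCODE M21 transcript begins at the next base. In the Nr4a1 window the cores begin 233, 213, 69 and 40 bases before the RefSeq start, in the Nr4a2 window 200, 144, 123 and 111 bases and in the Nr4a3 window 231, 213, 205 and 147 bases before it. These starts are those of RefSeq: the starts of the Nr4a1, Nr4a3, Odc1, Pde4b and Pde4d windows lie inside the longer GENCODE gene. Odc1 had 1 core, 79 bases before the RefSeq start and at the first base of the GENCODE gene, Pde4b had 1 core in 1 of its 4 windows and Pde4d had 0. A match of letters is a description and does not show that CREB binds there.

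The 3 receptors did not share a pattern over the libraries. Nr4a1 was at 15.3, 18.4 and 10.2 CPM in pMCAO 1, 2 and 3, against 19.9, 11.8, 11.8 and 15.4 CPM in Sham 1 to 4. The highest value was in Sham 1 and the lowest in pMCAO 3, and the means were 14.6 ± 4.12 CPM (SD, n = 3) after pMCAO and 14.7 ± 3.87 CPM (SD, n = 4) after sham surgery. The log2 change was -0.01 (SE 0.32, 95% interval -0.69 to 0.68, adjusted p = 0.995 by edgeR), an interval that leaves room for a change of up to 0.69 in size. Genes with similar profiles were Mak16, Cog1 and Lat2, with root mean square differences of 0.126, 0.134 and 0.135, where that of Nr4a1 itself is 0.311.

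Nr4a2 was at 19.996, 5.37 and 9.92 CPM in pMCAO 1, 2 and 3, against 10.3, 5.94, 9.73 and 7.26 CPM in Sham 1 to 4. A single library, pMCAO 1, stood above the rest, and pMCAO 2 was the lowest of all 7. For Nr4a2 the log2 change was 0.50 (SE 0.43, 95% interval -0.42 to 1.42, adjusted p = 0.644 by edgeR) and -0.12 without pMCAO 1.

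Nr4a3 was at 7.52, 7.02 and 6.78 CPM in pMCAO 1, 2 and 3, against 10.008, 1.72, 7.92 and 3.11 CPM in Sham 1 to 4. The pMCAO libraries were close together and lay inside the range of the sham libraries, of which Sham 1 and Sham 3 were higher and Sham 2 and Sham 4 lower. The coefficient of variation was 5.29% over pMCAO libraries and 68.9% over sham libraries. The mean count was 119 reads per library after pMCAO and 126 reads after sham surgery. At that count, counting error alone gives a coefficient of variation of 9.15% after pMCAO, above the 5.29% seen. The closeness of the pMCAO libraries thus does not show an even level. The log2 change was 0.33 (SE 0.54, 95% interval -0.83 to 1.48, adjusted p = 0.837 by edgeR) and 0.02 without Sham 2.

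The authors' deposited table gave larger changes for Nr4a3 and Nr4a2 than the fit of all libraries. The log2 change in the authors' deposited table was 2.03 for Nr4a3 (FDR 0.281) and 1.17 for Nr4a2 (FDR 0.348), and 1.78 for Arg1 (FDR 0.493), which is smaller than the 3.03 above. Bmp2 was at -0.39 (FDR 0.528) in the authors' deposited table, Odc1 at 0.47, Pde4d at 0.48, Crem at 0.36, Pde4b at 0.09 and Nr4a1 at 0.04, and none of the 9 had an FDR under 0.05 there. Over 11225 genes, a least-squares fit of the log2 changes in the authors' deposited table on the log2 CPM of the 7 libraries gave weights of 0.430 for pMCAO 1, 0.567 for pMCAO 3 and -0.998 for Sham 2, and weights between -0.001 and 0.001 for the other 4 libraries, with an R squared of 0.9998. For Nr4a3, the mean log2 CPM of pMCAO 1 and pMCAO 3 minus that of Sham 2, its lowest sham library, was 1.90. For Arg1, whose highest value was in pMCAO 2, the same difference was 1.87.

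**Figure D4:**
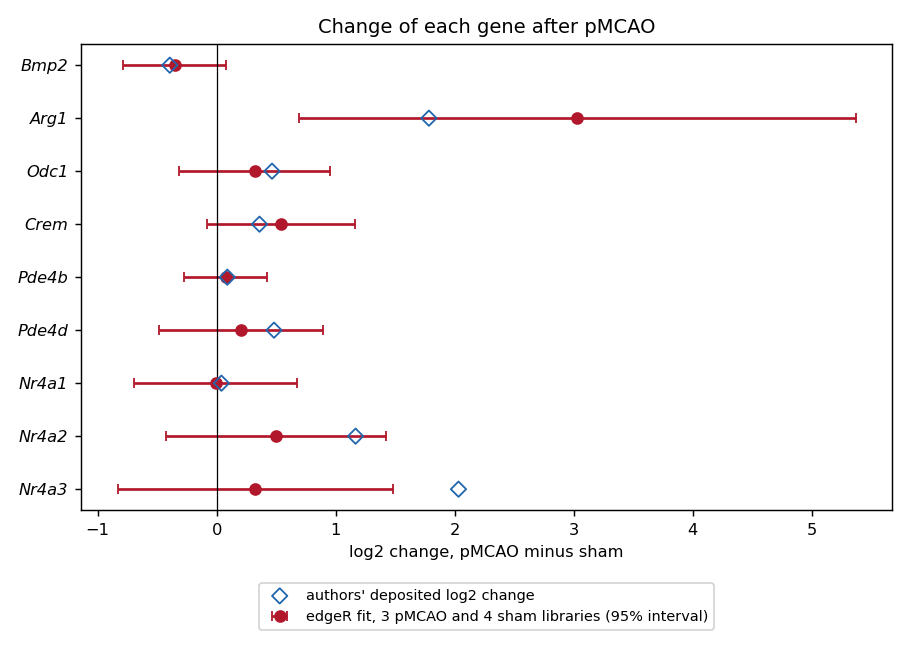
Log2 change, pMCAO minus sham (horizontal axis), of the 9 genes. Filled points with 95% intervals are the edgeR fit of 3 pMCAO and 4 sham libraries and open diamonds are the values of the authors' deposited table. The interval excludes 0 for Arg1 alone before adjustment over all genes, and the diamond of Nr4a3, at 2.03, lies outside the interval of -0.83 to 1.48.

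Per kilobase of exon, the order of the levels differed between groups in the place of Arg1. The length is the union of all annotated exons of a gene, so genes with several isoforms can rank lower than by transcript length. After pMCAO Arg1 (42.4 ± 36.5 CPM per kb) and Odc1 (34.1 ± 17.3 CPM per kb) came first, overlapping each other. In pMCAO 3 Arg1 was at 4.53 CPM per kb, below Odc1, Bmp2 and Pde4b, as in the sham means. After sham surgery Odc1 led at 27.3 ± 7.21 CPM per kb, overlapping Bmp2 at 16.4 ± 1.90 CPM per kb, then came Pde4b at 10.5 ± 0.649 CPM per kb, and Arg1 came after them at 5.22 ± 3.00 CPM per kb. Bmp2 was at 12.9 ± 2.23 CPM per kb after pMCAO, where its range overlapped that of Pde4b, while in sham libraries the 2 genes did not overlap. In both groups Nr4a1 (4.17 ± 1.17 CPM per kb after pMCAO and 4.19 ± 1.10 after sham surgery), Crem (3.66 ± 0.590 and 2.51 ± 0.693) and Nr4a2 (2.90 ± 1.84 and 2.04 ± 0.505) followed in that order. After pMCAO the ranges of these 3 genes overlapped from each to the next, and in sham libraries those of Crem and Nr4a2 did. Pde4d and Nr4a3 were the lowest in both groups, with Nr4a3 at 1.19 ± 0.0628 CPM per kb after pMCAO and 0.950 ± 0.654 CPM per kb after sham surgery, and their ranges overlapped.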

How the data were processed

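The deposited table holds read counts per gene, made by the authors from RNA-seq of 2.0 ng of RNA per library with ribosomal RNA removed. STAR, featureCounts, limma and GRCm38 (mm10) are named per the submitters' processing notes, with versions, strand setting and annotation release not given in the sources used here. The deposited CPM values equal the count over the library total to within 0.0005. The log2 changes, p-values and FDR in the deposited table are the authors'. Each of its 17209 genes exceeded 0.5 CPM in at least 4 libraries, so a gene expressed in the pMCAO libraries alone would not be listed.

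Counts were tested in R 4.3.3 by the quasi-likelihood test of edgeR 4.0.16 (robust, TMM factors, group as the only term, two-sided, Benjamini-Hochberg adjustment over 17209 genes, threshold 0.05). The expression filter kept all genes, and the biological coefficient of variation was 43.64%. The scripts were tested on simulated data. Levels are printed as TMM-scaled CPM. A count of 3 corresponds to between 0.0825 CPM (Sham 4) and 0.256 CPM (pMCAO 1), a limit that covers counting error only, since the labels name no molecular identifiers and PCR copies would count again. Exon lengths, as the union of all annotated exons of a gene, and positions came from GENCODE M21, which holds 99.5% of the gene IDs. Promoters came from RefSeq.

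The 9 genes and all lists were chosen with earlier results of these data known. Beyond the 9, up to 4 genes per list were named, those with the smallest unadjusted p and a mean of at least 1 CPM, with 3 macrophage markers and, for Bmp2, Arg1, Pde4b and Nr4a1, the 3 genes with the most similar profile (prior of 1 CPM). Bmp4, Nos2, Gnas, Adrb1, Grem1 and Smad7 were named after their values were seen. The smooth muscle and Cajal cell markers were set beside Pde3a after theirs were seen. Alternatives were other scalings and filters, DESeq2 1.42.0, limma 3.58.1 (voom, with and without sample quality weights), thinned counts, a replicate block and each library left out. Some genes are not reported here.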

Additional observations from a re-analysis of the deposited data

How the results depend on the processing

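Of the 9 genes, 0 passed in 14 of 17 alternatives and 1, Arg1, in the other 3 (DESeq2, limma-voom with sample quality weights, and without pMCAO 3). Of the 17, the setting without a filter on low counts kept the same 17209 genes and so repeats the main fit. Over all genes 17 passed, against 17 with RLE factors, 34 with upper-quartile factors, 29 without scaling, 75 with a mean of at least 5 CPM, 470 with DESeq2, 35 with limma-voom, 818 with sample quality weights and 35 with thinned counts. Leaving out single libraries gave 0 to 100 calls and 0 to 1 of the 9 genes. The 0 was without pMCAO 1, by edgeR, with 1987 genes at an unadjusted p under 0.05. Without scaling the calls split into 14 higher and 15 lower, against 12 and 5, and the median log2 change of all genes was -0.145, against -0.016. The cause of these differences was not tested.

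The direction of Bmp2, Arg1, Crem and Nr4a3 was the same in all 17 alternatives. Pde4b was at -0.052 without scaling and -0.012 with quality weights, Pde4d at -0.050 with quality weights, Odc1 at -0.17 without pMCAO 2 and Nr4a2 at -0.12 without pMCAO 1. Nr4a1 was at 0.0056 with RLE factors, 0.020 with upper-quartile factors, 0.0002 at 5 CPM, 0.0058 with DESeq2, 0.066 with quality weights and 0.019 with the replicate block, and between -0.21 and 0.20 with 1 library left out. When 1 library was left out, Odc1 lay between -0.17 and 0.56 and Nr4a2 between -0.12 and 0.85.

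Replicate numbers did not pair the libraries: deviations of libraries with the same number correlated at -0.073, -0.010 and 0.093, and not every library correlated best with its own number. With the replicate block 21 genes passed and 0 of the 9. Counts limited Nr4a3 most, at 40 reads in Sham 2.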
